A study of Mus musculus with 4 samples.

Results

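The genes described here are the core genes of the spindle assembly checkpoint, *Mad2l1*, *Mad1l1*, *Bub1*, *Bub1b*, *Bub3* and *Ttk*, the checkpoint-silencing genes *Mad2l1bp* and *Trip13*, and the activators of the anaphase-promoting complex (APC/C), *Cdc20* and *Fzr1*. They were chosen by name, and all 10 were listed among the 21957 genes of the table. Germinal vesicle (GV) oocytes came from females of 6 to 8 weeks of the B6D2F1 hybrid, a C57BL/6 x DBA cross primed with the gonadotropin PMSG 48 h before, and each of the 4 conditions was 1 library from a pool of 100 oocytes. GV oocytes were taken at 0 h of culture, MII oocytes after 12 h without drug, and those named TubA-10 and TubA-20 after 12 h with 10 or 20 μM of tubastatin A (TubA), a small molecule made to inhibit the deacetylase HDAC6. These doses are in the titles and the paper, whereas another field of the labels lists TubA-10 as 20 μM and TubA-20 as 11 μM. The labels title the MII sample an embryo. MII oocytes were kept only with a polar body, a selection that the methods do not give for the TubA oocytes. The paper reports that oocytes given the higher dose were arrested in meiosis I, before the MII stage. A comparison of MII with TubA-20 can therefore differ in meiotic stage as well as in drug, and these were not separated. A comparison of GV with TubA-10 or TubA-20 differs in 12 h of culture as well as in drug, and these were not separated either. The sources used here do not say whether the drug-free medium held the solvent DMSO. With 1 library per condition no difference can be set against a spread between replicates, so no p-value is given, and neighbours in an order of levels cannot be told apart by error.

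The spindle assembly checkpoint holds a dividing cell in metaphase while kinetochores, the protein plates on centromeres, lack microtubules. Such kinetochores recruit the kinases TTK (also called MPS1) and BUB1 and the MAD1 protein, and MAD2, BUBR1 (the product of *Bub1b*) and BUB3 then bind CDC20 as the mitotic checkpoint complex, which inhibits the APC/C. The APC/C is the ubiquitin ligase that marks securin and cyclin B for destruction, CDC20 activates it for anaphase, and CDH1, the product of *Fzr1*, activates it at other times. In mouse oocytes CDH1 is known for keeping cyclin B low during the GV arrest. Fully grown oocytes transcribe little, so their mRNA levels depend on stored transcripts, whose poly(A) tails shorten or lengthen during maturation, and the cytoplasmic polyadenylation element in the 3′ UTR is a known signal for lengthening.

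The 3′ ends of the 10 mRNAs were therefore read first, on the principal transcript of each gene (GENCODE M21, GRCm38). The letters TTTTAT or TTTTAAT were searched as the element, on the transcript strand only, and AATAAA or ATTAAA in the last 60 bases as the polyadenylation signal. Of the 10 transcripts, *Bub1b*, *Cdc20* and *Ttk* had an element within 100 bases before a signal. *Bub1b* had a pair of elements, 38 and 6 bases before the signal in a 3′ UTR of 272 bases, and *Cdc20* had overlapping elements 18 and 13 bases before the signal in a 3′ UTR of only 62 bases. *Ttk* had 1 element in that window, 79 bases before the signal. The following 30 bases of the 3′ UTR, from GRCm38 at chr2:118641553-118641582 (plus strand), chr4:118432918-118432947 (minus strand) and chr9:83872270-83872299 (plus strand), show in capitals the element nearest to the signal, or the overlapping pair in *Cdc20*. Distances run from the start of an element to the start of the signal.
*Bub1b*: tttcactgtgtaTTTTATaataaaatagtt
*Cdc20*: ttcttgtTTTTATTTTATtttttctaataa
*Ttk*: gttgtgcttttcTTTTATgcttttctgtaa

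For contrast, the 30 bases that end in the signal, in capitals, are given for *Bub3* (chr7:131571847-131571876, plus strand) and *Mad2l1bp* (chr17:46147407-46147436, minus strand), which had a signal and no element anywhere in the 3′ UTR.
*Bub3*: ctcaccctctcaatttgcctgtttATTAAA
*Mad2l1bp*: catgattttaaatatgatgagatgAATAAA

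*Bub1* and *Mad1l1* also had a signal and no element. *Fzr1* had neither an element in 1287 bases of 3′ UTR nor a signal in the last 60 bases, while *Trip13* had 4 elements and *Mad2l1* 12, both without a signal at the annotated end. The shorter principal transcript of *Mad2l1* had a signal and 1 element, which lay outside the window. A match of letters is a description and not evidence of use. Among 7358 genes that had at least 5 FPKM in a library and a 3′ UTR of at least 100 bases, 62.8% had an element anywhere in it and 80.5% a signal. Among the 5926 of these with a signal, 22.1% had an element in the window. *Cdc20*, with its short 3′ UTR, and *Trip13*, below 5 FPKM in every library, are in neither set.

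**Figure D1:**
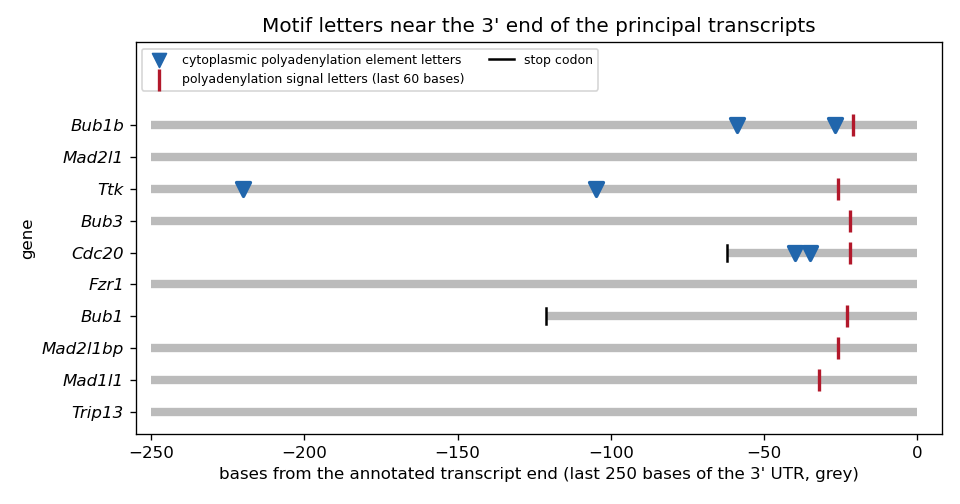
Positions of element letters (blue triangles) and signal letters (red bars) on the last 250 bases of the 3′ UTR (grey) of the principal transcript of each gene, with the x axis in bases from the annotated end. A black bar marks the stop codon where it falls in the range, as in *Cdc20*, whose elements lie 40 and 35 bases from the end.

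The genes did not move as a group. *Ttk* was at between 0.452 and 0.4999 times its GV level in the 3 cultured libraries, *Fzr1* was at 0.363 times its GV level in TubA-20, and every other gene stayed within 2-fold of GV in every library on the scale of FPKM + 1. FPKM, the fragments of a gene scaled to its transcript length and to all mapped fragments of the library, is a level per length, so genes can be set beside each other. It is a share of the mRNA captured, so it shows neither the number of oocytes nor the total RNA per oocyte. Since poly(A) RNA was selected, less mRNA of a gene and shorter tails cannot be told apart. Changes are log2 ratios of FPKM + 1, and a gene was called past 2-fold.

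The 4 libraries were of unequal depth. The low edge of the FPKM values, where a gene rests on 1 fragment, put them at about 15.4 M fragments for GV, with MII at 1.39, TubA-10 at 1.52 and TubA-20 at 0.848 times that depth, and FPKM summed to between 568331 and 627340. That depth is an indirect estimate. The read totals given in the paper instead place TubA-20 above GV, with MII and TubA-10 above both. Of 10 oocyte markers, 9 were above 100 FPKM in each library, with the highest being *Zp3* in GV and *Gdf9* in the cultured libraries. From GV to TubA-20, 4 of these 10 markers were past 2-fold lower and 1 (*Gdf9*, 1.11) higher, where 26.8% and 20.2% of all genes with at least 5 FPKM were. The 12 markers of cumulus or granulosa cells summed to between 19.9 and 26.1 FPKM, with *Nr5a2* or *Cyp19a1* as the highest and *Foxl2* at 0 in all libraries. From GV to TubA-20, 2 of the 12 were past 2-fold higher (*Tnfaip6*, from 0 to 1.57 FPKM, and *Ptx3*, from 0 to 1.19 FPKM) and 1 lower (*Inha*, which was at most 0.314 FPKM in the cultured libraries), all 3 named after their values were seen. The 8 blood cell markers summed to between 1.64 and 2.26 FPKM, nearly all from *Cd68*, with the hemoglobin genes at 0. Among 9193 genes that reached 1 FPKM in all 4 libraries, the log2 change from GV had a median of 0.13 at MII, 0.14 with TubA-10 and 0.19 with TubA-20. Set against the median gene, each log2 change from GV moves down by that amount, so that positive changes shrink and negative ones grow.

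Among the mRNAs of the mitotic checkpoint complex, *Bub1b* stood far above the others. *Bub1b* (ENSMUSG00000040084.9, chromosome 2, 118598211 to 118641591) was at 389 FPKM at GV, 530 at MII, 528 with TubA-10 and 574 with TubA-20. GV was the lowest of the 4 and the 3 cultured libraries lay close together. It held rank 323 of all genes in GV and between 165 and 179 in the cultured libraries. Relative to GV the log2 change was 0.44 at MII, 0.44 with TubA-10 and 0.56 with TubA-20, or 0.32, 0.30 and 0.37 relative to the median gene. From MII to TubA-20 the change was 0.12, which turned negative with FPKM sums or *Gapdh* made equal.

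*Mad2l1* (ENSMUSG00000029910.14, chromosome 6, 66535390 to 66547220) encodes MAD2, which binds CDC20 in its closed form. It was at 121 FPKM at GV, 134 at MII, 141 with TubA-10 and 178 with TubA-20, so TubA-20 was the highest library. The log2 changes from GV were 0.15, 0.22 and 0.55, that of TubA-20 being above 59.4% of the genes with at least 5 FPKM. From MII to TubA-20 the change was 0.40, larger than in 82.3% of the genes with at least 5 FPKM. *Mad2l1* has principal transcripts of 7557 and 1725 bases, and how the authors' program split fragments between them bears on the level but was not tested.

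*Bub3* (ENSMUSG00000066979.6, chromosome 7, 131560222 to 131571895) encodes the partner that brings BUB1 and BUBR1 to kinetochores. Its levels were 108 FPKM at GV, 131 at MII, 171 with TubA-10 and 131 with TubA-20. Here TubA-10 and not TubA-20 was the highest library, and MII and TubA-20 were at nearly the same level, with a log2 change of −0.00 between them. Relative to GV the log2 change was 0.28 at MII, 0.65 with TubA-10 and 0.28 with TubA-20, and that of TubA-10 was above 85.9% of the genes with at least 5 FPKM.

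*Cdc20* (ENSMUSG00000006398.15, chromosome 4, 118432901 to 118437352) is both the target of the checkpoint complex and an activator of the APC/C. It was at 78.9 FPKM at GV, 122 at MII, 79.8 with TubA-10 and 137 with TubA-20. The libraries fell into a low pair, GV and TubA-10, and a high pair, MII and TubA-20. Relative to GV the log2 change was 0.62 at MII, 0.02 with TubA-10 and 0.79 with TubA-20. The small one of TubA-10 turned negative with the median change set to 0, and that of TubA-20 was above 69.0% of the genes with at least 5 FPKM. Between MII and TubA-10 the change was −0.61, and only 1.51% of the genes with at least 5 FPKM had a lower value. Of the 50-base words of the *Cdc20* transcript, 11.4% also occurred in processed pseudogenes (2 genes that are not in the table). How many fragments this could have affected was not measured. The same share was 0.946% for *Mad2l1*, 0.922% for *Bub3* and 0 for the other 7 genes.

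Added up, *Mad2l1*, *Bub1b*, *Bub3* and *Cdc20* reached 698 FPKM at GV, 917 at MII, 920 with TubA-10 and 1020 with TubA-20. *Bub1b* made up between 55.8% and 57.7% of that sum in every library. The share of *Cdc20* was 11.3% at GV, 13.3% at MII, 8.68% with TubA-10 and 13.4% with TubA-20, and that of *Bub3* was highest in TubA-10, at 18.6%, and lowest in TubA-20, at 12.9%.

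**Figure D2:**
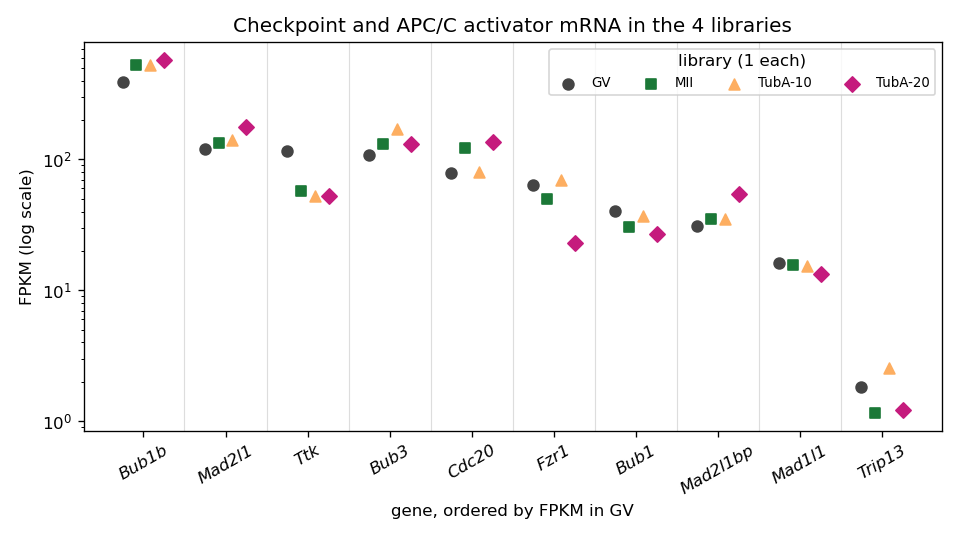
FPKM (log axis) of the 10 genes in the 4 libraries, 1 point per library, with genes ordered by their GV level. *Ttk* was at 115 FPKM in GV and between 52.1 and 57.7 in the cultured libraries, and *Fzr1* was at 23.1 in TubA-20 and between 50.3 and 70.2 in the others.

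The kinase genes upstream of the complex were lower after culture, *Ttk* by the most. *Ttk* (ENSMUSG00000038379.15, chromosome 9, 83834689 to 83872389), which encodes the kinase that starts checkpoint signalling at kinetochores, was at 115 FPKM at GV, 57.7 at MII, 52.8 with TubA-10 and 52.1 with TubA-20. GV stood alone and the 3 cultured libraries were close to each other, with or without drug. *Ttk* fell by 1.11 on the log2 scale in TubA-10 and by 1.13 in TubA-20. In MII its log2 change of −0.99 was just short of 2-fold, while the ratio of FPKM without the added 1 was 0.4999. In TubA-10 the fall was no longer past 2-fold with *Gapdh* made equal, at −0.85. Against MII the log2 changes were −0.13 in TubA-10 and −0.14 in TubA-20.

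*Bub1* (ENSMUSG00000027379.13, chromosome 2, 127801122 to 127831865) encodes the kinase that marks the inner centromere and carries BUB3 at kinetochores. It was at 40.5 FPKM at GV, 30.2 at MII, 36.8 with TubA-10 and 26.8 with TubA-20, with TubA-20 the lowest library. The log2 changes from GV were −0.41, −0.13 and −0.58, of which that of TubA-10 turned positive with *Gapdh* made equal. In the same order, 34.8%, 37.1% and 33.9% of the genes with at least 5 FPKM had a lower change. The change from MII to TubA-20 was −0.17. The gene is related to *Bub1b*, and the FPKM ratio of *Bub1* to *Bub1b* was 0.104 at GV, 0.0571 at MII, 0.0697 with TubA-10 and 0.0467 with TubA-20.

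*Mad1l1* (ENSMUSG00000029554.15, chromosome 5, 140008689 to 140321552) encodes MAD1, the kinetochore anchor of MAD2, and varied least of the 10 genes. It was at 16.1 FPKM at GV, 15.6 at MII, 15.5 with TubA-10 and 13.2 with TubA-20, a range of 1.22-fold. Its log2 change from GV to TubA-20 was −0.27, and those to MII and TubA-10, −0.04 and −0.06, turned positive with FPKM sums or *Gapdh* made equal. *Mad2l1* stood above *Mad1l1* by 7.51-fold at GV, 8.59-fold at MII, 9.10-fold with TubA-10 and 13.4-fold with TubA-20.

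Of the genes that take the checkpoint complex apart, *Mad2l1bp* was highest in TubA-20 and *Trip13* was low throughout. *Mad2l1bp* (ENSMUSG00000034509.8, chromosome 17, 46147387 to 46153553) encodes p31comet, the adaptor that brings MAD2 to the TRIP13 ATPase. It was at 30.9 FPKM at GV, 35.3 at MII, 35.2 with TubA-10 and 54.1 with TubA-20. TubA-20 stood apart and the other 3 libraries were close together. Relative to GV the log2 change was 0.19 at MII, 0.18 with TubA-10 and 0.79 with TubA-20, the largest positive change of the 10 genes in TubA-20. That of TubA-20 was above 69.2% of the genes with at least 5 FPKM. From MII to TubA-20 the change was 0.60, short of 2-fold but above 93.7% of the genes with at least 5 FPKM. It was positive under every scaling tried. *Mad2l1* was also at its highest in TubA-20, and the ratio of *Mad2l1* to *Mad2l1bp* stayed between 3.28 (TubA-20) and 4.01 (TubA-10).

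*Trip13* (ENSMUSG00000021569.9, chromosome 13, 73911347 to 73937784) was at 1.81 FPKM at GV, 1.15 at MII, 2.56 with TubA-10 and 1.23 with TubA-20. It was the lowest of the 10 genes in every library and highest in TubA-10. By the depth estimate these values rest on about 90 fragments at GV, 79 at MII, 193 with TubA-10 and 51 with TubA-20. At such levels the added 1 hides much of a change. From MII to TubA-10 the log2 change was 0.73, and 1.09 with a pseudocount of 0.1. From TubA-10 to TubA-20 it was −0.68, and −1.01 with that pseudocount. The ratio of *Trip13* to *Mad2l1bp* was 0.0588 at GV, 0.0325 at MII, 0.0729 with TubA-10 and 0.0226 with TubA-20.

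The APC/C activators parted in TubA-20. *Fzr1* (ENSMUSG00000020235.16, chromosome 10, 81366222 to 81378516), the gene for CDH1, was at 63.6 FPKM at GV, 50.3 at MII, 70.2 with TubA-10 and 23.1 with TubA-20. TubA-20 was well below the other 3 libraries and TubA-10 was the highest of them. On the log2 scale *Fzr1* fell by 1.42 from GV to TubA-20, by 1.09 from MII to TubA-20 and by 1.56 from TubA-10 to TubA-20. In each of these pairs it stayed past 2-fold under the 4 other scalings and both smaller pseudocounts. None of the 3 changes was past 3-fold as computed here, although without the added 1 its TubA-10 level was 3.04 times that of TubA-20. Only 4.64% of the genes with at least 5 FPKM had a lower change from MII to TubA-20, and 4.68% from TubA-10 to TubA-20. From GV the position was less extreme, with 20.4% of the genes lower. The oocyte markers *Zp2* (−1.41), *Zp3* (−1.21) and *Figla* (−1.68), named after their values were seen, were also past 2-fold lower in TubA-20 than in MII. They are 3 of the 10 on that list, where 6.09% of the genes with at least 5 FPKM were past 2-fold lower. In all, 7 of the 10 markers were lower in TubA-20 than in MII and 3 were higher. The largest rise was that of *Mos* (0.52, also named after its value was seen). Whether the falls of *Zp2*, *Zp3* and *Figla* bear on the *Fzr1* result was not tested, and neither was the part of meiotic stage. From GV to TubA-10 the log2 change of *Fzr1*, 0.14, was that of the median gene. *Mfsd12* overlaps *Fzr1* on the other strand, as *Elovl1* does *Cdc20* and *Fgfr2* does *Bub3*, and the counting used strand. On the same strand, 2 gene models of the class to be experimentally tested overlap *Mad1l1* and a miRNA gene overlaps *Trip13*.

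Since *Cdc20* was high where *Fzr1* was low, their ratio spread over a 5.21-fold range. The FPKM ratio of *Cdc20* to *Fzr1* within a library, which does not depend on how libraries are scaled, was 1.24 at GV, 2.43 at MII, 1.14 with TubA-10 and 5.92 with TubA-20. GV and TubA-10 were close to equal levels, MII was 1.95 times and TubA-20 4.77 times the GV ratio, and TubA-20 was 2.44 times MII. The ratio of *Mad2l1* to *Cdc20* moved less, being 1.54 at GV, 1.10 at MII, 1.77 with TubA-10 and 1.30 with TubA-20. That of *Bub1b* to *Bub3* was 3.60, 4.03, 3.09 and 4.38 in the same order. *Ttk* was at 2.85 times the level of *Bub1* in GV, 1.91 times in MII, 1.43 times in TubA-10 and 1.94 times in TubA-20.

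**Figure D3:**
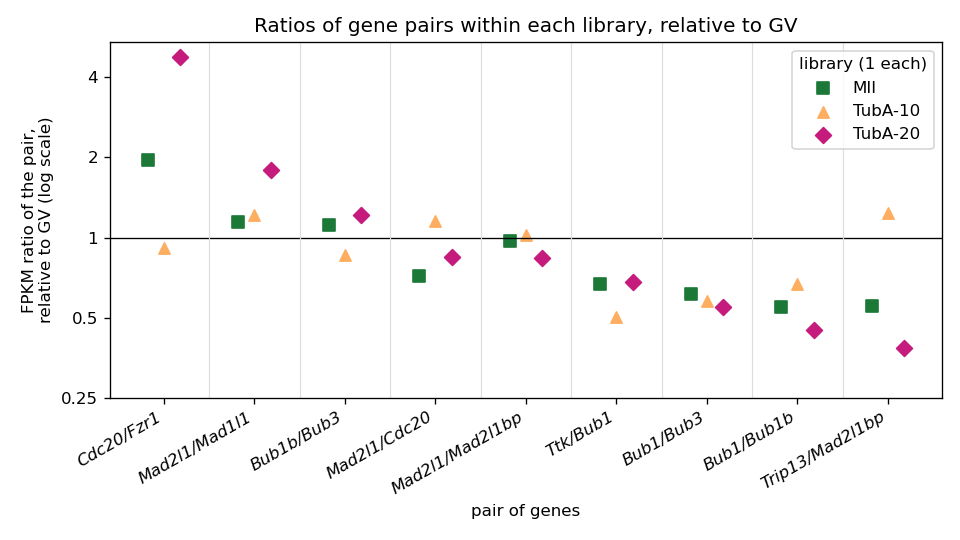
FPKM ratio of each of 9 gene pairs in MII, TubA-10 and TubA-20 divided by the same ratio in GV (log axis), 1 point per library. *Cdc20*/*Fzr1* in TubA-20 lies highest, at 4.77, and *Trip13*/*Mad2l1bp* in TubA-20 lowest, at 0.385.

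Counted over the comparisons, few of the 10 genes were past 2-fold. From GV to MII, 0 of the 10 were past 2-fold in either direction, against 3.05% of all genes higher and 8.34% lower, or 8.26% and 20.8% of the 7685 genes with at least 5 FPKM in either library. From GV to TubA-10, 0 were higher and 1 (*Ttk*) lower, against 0.742% and 5.6% of all genes and 1.77% and 14.2% of those with at least 5 FPKM. From GV to TubA-20, 0 were higher and 2 (*Ttk* and *Fzr1*) lower, against 7.61% and 11.7% of all genes and 20.2% and 26.8% of those with at least 5 FPKM. A count of 2 lower in TubA-20 is thus no more than the share among expressed genes gives.

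In the comparisons with MII the background was smaller than in those with GV. From TubA-10 to TubA-20 it was close to that from GV to TubA-10. From MII to TubA-10, 0 of the 10 were past 2-fold, against 0.515% of all genes higher and 0.128% lower (1.29% and 0.206% with at least 5 FPKM). From MII to TubA-20, 0 were higher and 1 (*Fzr1*) lower, against 0.328% and 2.44% of all genes (0.542% and 6.09%). From TubA-10 to TubA-20, 0 were higher and 1 (*Fzr1*) lower, against 0.66% and 5.52% of all genes (1.45% and 14.1%). The count of 1 lower from TubA-10 to TubA-20 is no more than the share among expressed genes gives. Nothing is read from the count of 1 from MII to TubA-20.

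The median log2 change of the 10 genes from GV was 0.05 at MII, 0.16 with TubA-10 and 0.00 with TubA-20, and over the genes with at least 5 FPKM it was 0.11, 0.15 and 0.23. In TubA-20, 5 of the 10 were above and 5 below GV. *Mad2l1bp*, *Cdc20*, *Bub1b*, *Mad2l1* and *Bub3* were above, and *Fzr1*, *Ttk*, *Bub1*, *Trip13* and *Mad1l1* below. The comparisons with GV share the GV library. From MII to TubA-20 the median was 0.02, with 5 genes above and 5 below.

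**Figure D4:**
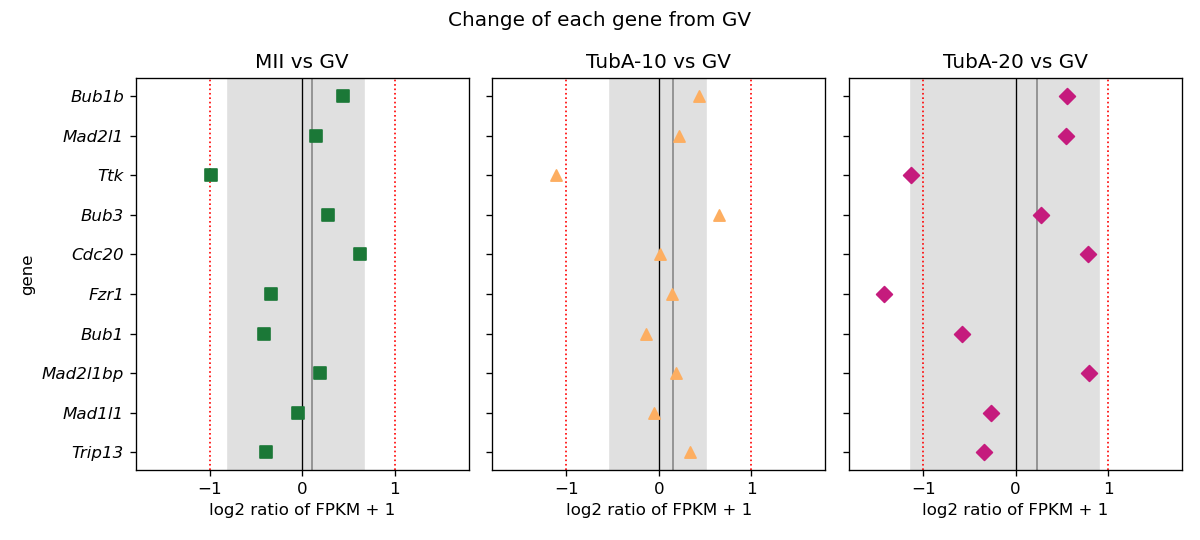
Log2 ratio of FPKM + 1 from GV for the 10 genes in MII, TubA-10 and TubA-20, 1 point per gene. Grey bands span the quartiles and grey lines the median of the genes with at least 5 FPKM, and dotted lines mark 2-fold. *Ttk* lies beyond the lower line in TubA-10 and TubA-20 and just inside it in MII, and *Fzr1* lies beyond it in TubA-20.

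The genes with element letters before the signal can be set beside these values. Over all expressed genes, the 1308 with an element in the window had a median log2 change from GV of 0.58 at MII, 0.39 with TubA-10 and 0.80 with TubA-20, and the 4618 with a signal and no element had 0.11, 0.16 and 0.17. Past 2-fold lower in TubA-20 were 7.95% of the former and 25.9% of the latter. Of the genes with an element in the window, *Bub1b* had log2 changes from GV of 0.44 at MII, 0.44 with TubA-10 and 0.56 with TubA-20. The changes of *Cdc20* were 0.62, 0.02 and 0.79 in the same order, and those of *Ttk* were −0.99, −1.11 and −1.13. Among those with a signal and no element, *Mad2l1bp* (0.79) and *Bub3* (0.28) were above GV in TubA-20, and *Bub1* (−0.58) and *Mad1l1* (−0.27) below. From MII to TubA-10, genes with an element had a median of −0.16 against 0.03 without, and *Cdc20* was at −0.61 and *Bub1b* at −0.00. What part the elements have in these values was not tested.

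Of the promoter windows of the 10 genes (RefSeq, GRCm38.p6, 250 bases before to 50 after the start), 7 of 12 held TTTGAA or TTCGAA on either strand, the letters of the cell cycle homology region, against 19.2% of 32851 windows of that length. The windows of *Bub3* overlap and hold the same match, so 1 site counts for both of them. *Bub1b*, *Bub1*, *Cdc20*, *Bub3*, *Ttk* and *Trip13* had them. TTCGAA reads the same on both strands, and the windows were not chosen for transcription in oocytes.

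The mRNAs of proteins that work with the checkpoint and the APC/C were counted on 4 lists, to be read against the 20.2% higher and 26.8% lower among genes with at least 5 FPKM from GV to TubA-20, whose median change was 0.23. Of 13 kinetochore platform genes, 2 rose past 2-fold from GV to TubA-20 and 2 fell. These counts are too small to be read as different from the shares of expressed genes. *Nsl1*, whose highest level was 2.81 FPKM in MII, is not among the genes with at least 5 FPKM. *Knl1*, the scaffold that binds BUB1, rose from 7.60 to 30.2 FPKM (1.86) and *Zwilch* by 1.23, while *Spc24* and *Spc25*, partners in the NDC80 complex, had changes of −1.70 and −1.37. *Knl1* had already risen to 26.4 FPKM in MII, without drug. *Spc25* was at 115 FPKM in GV and already at 45.5 FPKM in MII, and *Zwilch* had a change of 0.62 from GV to MII. Against MII, *Spc24* alone fell past 2-fold in TubA-20, from 67.0 to 31.6 FPKM, and 0 of the 13 rose, where 6.09% of expressed genes were past 2-fold lower and 0.542% higher. *Zwilch* and *Spc25* were named after their values were seen.

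Of 14 APC/C subunit genes, 1 rose past 2-fold from GV to TubA-20 and 2 fell, against 20.2% and 26.8% of expressed genes. Here too the counts are too small for a difference to be read from them. *Cdc26* rose from 67.3 to 151 FPKM (1.15), *Anapc2*, the cullin-like subunit, fell from 19.7 to 4.93 FPKM, and *Anapc15*, named after its value was seen, fell from 302 to 101 (−1.58). *Anapc2* had already fallen to 6.82 FPKM in MII, without drug, where *Cdc26* was at 111 and *Anapc15* at 169 FPKM. The median of the 14 was 0.62. The rise of *Cdc26* did not pass with the median change set to 0. From MII to TubA-20, 0 of the 14 passed 2-fold.

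All 5 genes for E2 enzymes and inhibitors of the APC/C were above GV in TubA-20, 2 of them past 2-fold, where 20.2% of expressed genes were. *Ube2d1* rose from 5.09 to 15.1 FPKM (1.40) and *Ube2s*, the enzyme that extends ubiquitin chains on APC/C substrates, from 457 to 1095 (1.26, named after its value was seen). In MII, without drug, *Ube2d1* was at 7.82 and *Ube2s* at 711 FPKM. *Fbxo5*, an APC/C inhibitor, had the smallest change, 0.12. Of 9 APC/C substrate genes, 4 rose past 2-fold from GV to TubA-20 and 0 fell, against 20.2% and 26.8% of expressed genes, with a median of 0.83 against 0.23. With so few genes nothing is read from that difference. *Ccna2* rose by 1.63, *Pttg1*, the gene for securin, by 1.45 from 2606 to 7145 FPKM, *Ccnb1* by 1.23 from 394 to 927 FPKM, and *Espl1*, the gene for separase and named after its value was seen, by 1.07. With the median change set to 0 *Espl1* was no longer past 2-fold. Without drug, from GV to MII, the changes were 0.98 for *Ccna2*, 0.95 for *Pttg1*, 0.93 for *Ccnb1* and 1.12 for *Espl1*. *Aurka* had the lowest change, −0.55. Against MII, 0 of the 5 and 0 of the 9 passed 2-fold, with values of 0.51 for *Pttg1* and 0.31 for *Ccnb1*. In TubA-10 *Pttg1* was at 3645 FPKM and *Ccnb1* at 626, between GV and MII (5029 and 749), and both were below MII, with log2 changes of −0.46 and −0.26.

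**Figure D5:**
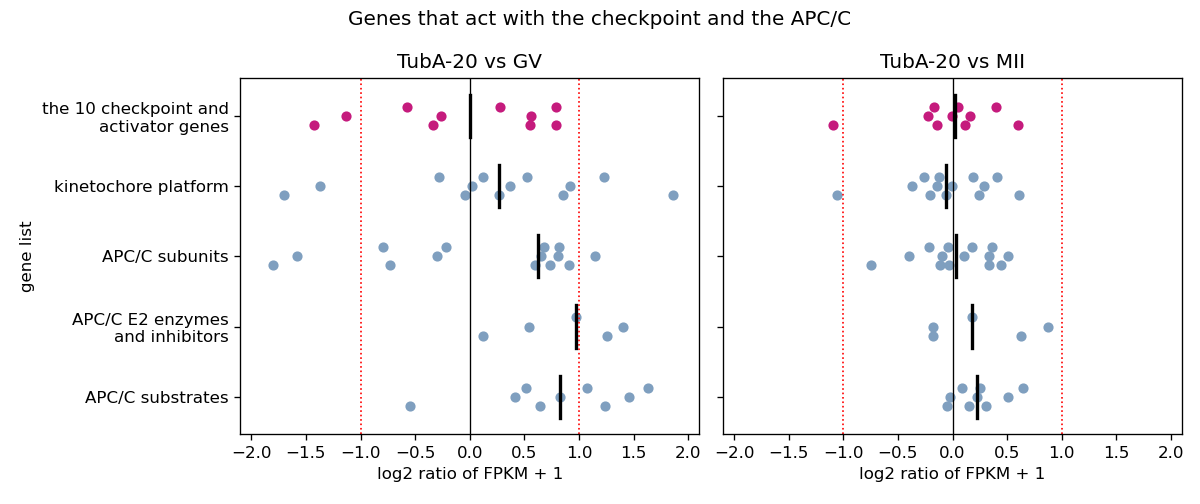
Log2 ratio of FPKM + 1 from GV to TubA-20 (left) and from MII to TubA-20 (right) for the 10 genes and 4 related gene lists, 1 point per gene, with black bars for medians and dotted lines at 2-fold. The medians from GV are 0.00, 0.26, 0.62, 0.98 and 0.83 from top to bottom, and *Fzr1* and *Spc24* alone lie beyond 2-fold on the right.

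The genes whose 3 log2 changes from GV lay nearest to those of *Fzr1*, among 5546 genes with a mean of at least 10 FPKM, were *Yipf1* (distance 0.06), *Bfsp1* (0.10) and *Asgr2* (0.17), and 12 genes lay within 0.25. For *Mad2l1bp* these were *Ppih* (0.04), *Ift43* (0.06) and *Csnk2b* (0.08), and 129 genes lay within 0.25. Each distance rests on 4 libraries. *Hdac6*, the gene for the named target of TubA, was highest in GV, at 4.44 FPKM, and lowest in TubA-20, at 1.86 FPKM.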

How the data were processed

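The authors mapped paired reads of poly(A)-selected RNA to mm10 and deposited 1 table of FPKM values, made by cufflinks with a strand-specific library type. The submitters' processing notes name STAR 2.5.0, Cufflinks and Cuffdiff 2.2.1. FPKM values are divided by transcript length and mapped fragments, and no further scaling was applied here for the main results. The sources used here do not say whether the authors' programs also scaled the libraries to each other. Of 21959 entries, 21794 were given symbols by Ensembl identifier, coordinates were from GENCODE M21 (for *Mad2l1bp* and *Trip13* a different version of the same identifier), and entries that shared a symbol were summed. Log2 ratios of FPKM + 1 were computed for 6 comparisons and called past 2-fold. Depth was estimated from the 2nd percentile of FPKM x kilobases over single-transcript genes longer than 2000 bases. Genes of related lists could be named if they had the highest or lowest change from GV to TubA-20 in their list, with *Ccnb1*, *Pttg1*, *Gapdh*, *Hdac6*, the highest gene of each marker list and the 3 nearest patterns to the largest rise and the deepest fall among the 10 genes added. The genes, lists and comparisons were chosen with earlier results of these data known. Pseudocounts, scalings, a filter at 5 FPKM and thresholds of 1.5 and 3-fold were varied. Scripts were tested on simulated data. Python 3.11.15, numpy 2.4.6, pandas 2.3.3 and matplotlib 3.10.9 were used.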

Additional observations from a re-analysis of the deposited data

Results flagged for a closer look

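Relative to MII, *Fzr1* lay in opposite directions at the 2 doses. Its log2 change from MII was 0.47 with TubA-10 and −1.09 with TubA-20. Relative to GV it was −0.33 at MII, 0.14 with TubA-10, the same as the median gene, and −1.42 with TubA-20. With 1 library at each dose the difference was not tested.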

How the results depend on the processing

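The counts of genes past 2-fold were small, so single genes near the threshold moved them. From GV to MII the count of lower genes was 1 instead of 0 with a pseudocount of 0.01 or with the median change set to 0, through *Ttk*. From GV to TubA-10 it was 0 instead of 1 with *Gapdh* made equal. With pseudocounts of 0.1 or 0.01, *Trip13* brought the number higher from MII to TubA-10 to 1 and the number lower from TubA-10 to TubA-20 to 2. At 3-fold no gene passed in any comparison, so the counts of lower genes in TubA-10 and TubA-20 against GV, in TubA-20 against MII and in TubA-20 against TubA-10 became 0. At 1.5-fold the counts of higher genes became 1 from GV to MII, 1 from GV to TubA-10, 2 from GV to TubA-20, 1 from MII to TubA-10, 1 from MII to TubA-20 and 2 from TubA-10 to TubA-20, and those of lower genes became 1 from GV to MII, 1 from MII to TubA-10 and 2 from TubA-10 to TubA-20. Of 60 changes of a gene in a comparison, the sign turned in 11 under some alternative, the largest of these changes being −0.13 for *Bub1* from GV to TubA-10. The rise of *Cdc26* in TubA-20 was the only call among the APC/C subunits higher than GV, and that count became 0 with the median change set to 0. No paired analysis was possible because each condition has 1 library. The estimated depth limits *Trip13* most.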
